A study of Mus musculus with 14 samples.

Results

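The genes of the bone morphogenetic protein (BMP) pathway described here are 9 members named by symbol: the ligands Bmp2, Bmp4 and Bmp6, the extracellular antagonists and modulators Grem1, Nog and Bmper, and the intracellular inhibitor Smad6 with the early target genes Id1 and Id3. They are 9 of the 56941 genes in the count table, and 8 of them were among the 19145 genes that entered the tests, which needed an average of 10 counts or more per library. A further 57 genes of the same pathway, sorted into 5 lists by role, give the surroundings of the members, and 52 of these were tested.

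Bulk RNA-seq libraries were made from the aortic valve leaflets of 14 mice, and every mouse is a library of its own. The mice were wild-type C57BL/6J males, 8 weeks old when the treatment began by the paper's account. All groups, the controls included, ate a hypercholesterolemic Breslow Western diet. The question of the design is what angiotensin II (AngII) does to the valve and what LY272015, which blocks the serotonin receptor HTR2B, changes in it. Group sizes were 4 Ctrl, 2 LY, 4 AngII and 4 AngII+LY mice. Osmotic pumps delivered AngII for 28 days at 1000 ng/kg/min, and LY272015 was injected into the peritoneum at 3 mg/kg, either alone (LY) or during the infusion (AngII+LY). The sources differ on how often LY272015 was given, and they also differ on whether all or some of the AngII and AngII+LY mice lost their pumps 48 hours before the valves were taken. Several samples in the dosed groups have treatment labels with other compound numbers than LY272015 and were placed by their titles. The series text speaks of 4 mice in each group, whereas the LY group has 2 libraries here.

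BMPs are secreted dimers that bind pairs of type I and type II serine/threonine kinase receptors, and the activated receptors phosphorylate SMAD proteins that enter the nucleus together with Smad4. Antagonists such as Noggin (Nog) and Gremlin (Grem1) hold the ligands outside the cell, Smad6 blocks the signal inside it, and Id1, Id3 and Smad6 itself are switched on early, so that their RNA is commonly read as a sign of BMP activity. In the aortic valve, BMP ligands are known from endothelial and interstitial cells and from calcified human leaflets.

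Library totals ran from 20990655 counts in AngII 4 to 73128220 in AngII 2. The labelled tissue was checked by its markers: all 12 interstitial and fibroblast markers and all 13 endothelial markers had counts in every library, at 0.512 to 1.98% and 0.193 to 0.498% of the counts. Cardiomyocyte markers were present too, at 0.953 to 4.73%. The share of counts in mitochondrial genes moved with the groups. Ctrl had 4.00 to 7.52% and the LY mice 8.62 and 9.76%, whereas AngII had 9.83 to 25.5% and the AngII+LY mice 10.1 to 20.2%, so that every AngII mouse lay above every Ctrl mouse. AngII 3 and AngII 4, at 24.7% and 25.5%, and AngII+LY 1, at 20.2%, were the highest. The relation of a gene's level to its GC content, as Spearman coefficients across genes, also separated these groups, being positive in every Ctrl library (0.0242 to 0.37) and negative in every AngII library (-0.0784 to -0.44, the lowest in AngII 3 and AngII 4). Among the AngII+LY libraries it was negative only in AngII+LY 1 (-0.13). The part of these properties in the results below was not tested beyond a GC correction, whose values are given for some of the genes only. Since these are bulk samples, fewer cells of a type and less RNA per cell cannot be told apart in any result below.

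Promoter sequence is shown for Bmp4, Id3 and Id1, because Bmp4 and Id3 varied together across the mice and Id1 is the other Id target among the members. Each line is the 250 bases before the start of the gene's canonical transcript, 5′ to 3′ on the gene's strand, from GRCm39 with the GENCODE annotation. Capitals mark GTCT, the core of the SMAD binding element, on either strand (AGAC on the other one), and TATAAA, the TATA box. In Id1 a TATAAA and an AGAC lie side by side without overlap and read as 1 run of capitals.
Id1 (chr2:152577915-152578164, + strand): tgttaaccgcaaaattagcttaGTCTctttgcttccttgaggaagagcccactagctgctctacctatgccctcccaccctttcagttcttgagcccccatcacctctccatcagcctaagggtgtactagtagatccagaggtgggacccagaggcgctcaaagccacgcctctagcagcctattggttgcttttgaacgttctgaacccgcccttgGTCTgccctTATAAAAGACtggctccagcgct
Id3 (chr4:135870558-135870807, + strand): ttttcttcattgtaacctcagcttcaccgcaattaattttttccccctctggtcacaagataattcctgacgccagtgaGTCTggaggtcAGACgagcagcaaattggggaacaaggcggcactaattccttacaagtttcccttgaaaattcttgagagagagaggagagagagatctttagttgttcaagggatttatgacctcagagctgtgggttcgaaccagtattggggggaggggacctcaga
Bmp4 (chr14:46628127-46628376, - strand): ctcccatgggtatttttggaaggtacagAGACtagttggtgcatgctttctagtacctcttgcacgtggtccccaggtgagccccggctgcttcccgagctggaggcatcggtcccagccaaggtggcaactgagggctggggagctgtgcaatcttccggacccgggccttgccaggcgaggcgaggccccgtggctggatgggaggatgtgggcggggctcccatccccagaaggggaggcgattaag

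The Id1 window held 3 GTCT cores and the only TATAAA among the 9 members, 23 to 18 bases before the start. The Id3 window held 2 cores and the Bmp4 window 1. GTCT occurs in 84.3% of 21667 windows of the same length before protein-coding genes and TATAAA in 12.5%. Those windows lie before the outer start of each annotated gene, whereas the members' windows lie before the canonical transcript. GTCT was in the windows of 8 of the 9 members, all but Smad6, so holding it separates no member from other genes. GGCGCC, a GC-rich SMAD motif that reads the same on both strands, was in 7.86% of the windows and, among the members, only in the window of Grem1. These matches are letters in a window and were not tested as binding sites. The Id1 window lies inside the annotated Id1 gene but outside annotated exons. The Id3 window overlaps an exon of the antisense gene Gm57159. The Bmp4 window, which lies inside the annotated Bmp4 gene, overlaps an exon of the antisense gene Gm63461.

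The members differed widely in level. As the normalized count per kilobase of exon in the 4 Ctrl mice, the order was Id3 at 24422 ± 3804 (SD, n = 4), Id1 at 6610 ± 525, Smad6 at 2634 ± 782, Bmp6 at 1098 ± 166, Bmp4 at 860 ± 190, Bmper at 536 ± 252, Bmp2 at 368 ± 111 and Nog at 28.5 ± 24.7. The ranges of Id3, Id1 and Smad6 did not meet each other or those of the ligands. Bmp6 and Bmp4 overlapped as neighbours, as did Bmp4 and Bmper, and Bmper and Bmp2. Grem1 (chr2:113576509-113589000) had 0 counts in all 14 libraries, which allows a level of up to 0.143 CPM in the smallest library and 0.0410 CPM in the largest, taking 3 counts as the limit for a count of 0. These limits cover counting error only, and hold only if the counting could assign reads to this gene, which was not tested because the annotation release is not given in the sources used here. Across all 14 libraries the highest normalized count was 13.4 times the lowest for Nog, 11.4 times for Bmp2 and 7.93 times for Bmper, against 2.23 times for Id1 and a median of 3.6 over the tested genes.

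**Figure D1:**
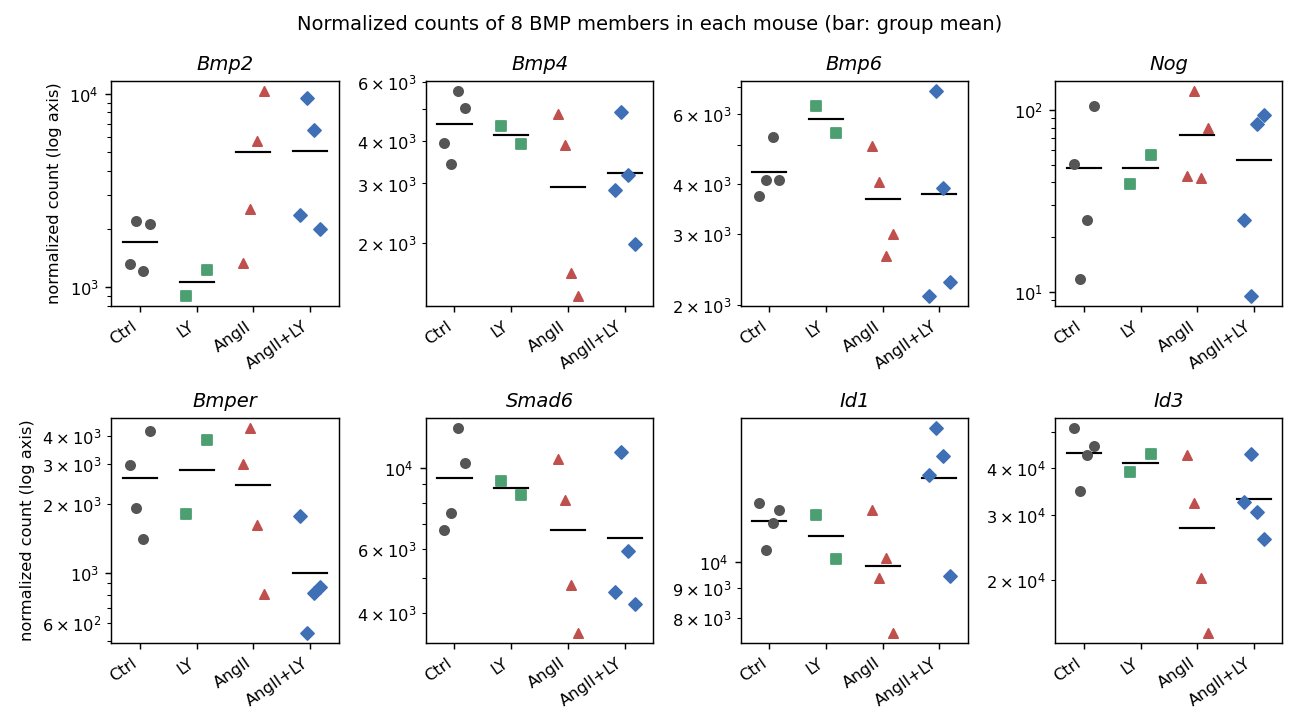
Each panel plots the normalized count of a member (log axis) in every mouse by group, with a bar at the group mean. Bmp2 spreads from 1333 to 10291 in the AngII mice, whereas its 4 Ctrl mice stay between 1212 and 2182.

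AngII against Ctrl asks what the infusion did to the valve. No member passed the test used throughout, an adjusted p under 0.05 with an absolute log2 fold change above 0.5 in edgeR's quasi-likelihood test with Benjamini-Hochberg adjustment over all 19145 genes. The same held for the whole table, where 0.0% of the genes passed and the smallest adjusted p was 0.0573. At an unadjusted p under 0.05, 2 of the 8 tested members, Bmp2 and Id3, stood beside 25.2% of all genes. DESeq2 called 1 of 8, Bmp2, beside 13.9% of all genes, and the newer quasi-likelihood method of edgeR called 0 of 8 beside 2.9%. In none of the 8 did the AngII and Ctrl values stay apart, while 15% of all genes had groups that did not overlap. The median log2 fold change was -0.24 over the 8 members, of which 2 were above 0, and -0.06 over all genes, of which 47.2% were above 0.

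Bmp2 (chr2:133394079-133404816), an osteogenic ligand, had normalized counts of 1311, 2182, 1212 and 2119 in Ctrl 1 to 4. The AngII mice had 1333, 2540, 5713 and 10291. AngII 1 lay within the Ctrl range and the other 3 AngII mice above it, with AngII 3 and AngII 4 far above, the same libraries that had the high mitochondrial share. The log2 fold change was 1.54 ± 0.59 (SE), a 2.91-fold higher level, with a 95% confidence interval of 0.28 to 2.79 and an adjusted p of 0.129 in edgeR's quasi-likelihood test. An exact two-sided permutation test of the mean log2 level gave p = 0.114 (n = 4 and 4, where 0.0286 is the smallest p possible). DESeq2 gave a log2 fold change of 1.61 with an adjusted p of 0.0265. With AngII 1 left out, edgeR's quasi-likelihood test gave 1.86 with an adjusted p of 0.0499, in a fit that called 9.02% of all genes, and leaving out single mice moved the value between 0.90 and 1.86. The AngII+LY mice did not pair Bmp2 with the mitochondrial share in this way. AngII+LY 1, with their highest share at 20.2%, had 2353 normalized counts, and AngII+LY 2, with their lowest at 10.1%, had 9466.

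Bmp4 (chr14:46620250-46636745) and Bmp6 (chr13:38529065-38684280), the other ligands, lay lower on average under AngII without passing the test. Bmp4 had 3949, 3437, 5629 and 5015 normalized counts in the Ctrl mice and 4835, 3888, 1625 and 1393 in the AngII mice. AngII 1 and 2 lay within the Ctrl range and AngII 3 and 4 far below it. Its log2 fold change was -0.62 ± 0.37, its adjusted p in edgeR's quasi-likelihood test was 0.319, and the value was -0.97 without AngII 1 and -0.39 without AngII 4. Bmp6 had 3750, 4105, 5242 and 4111 in Ctrl and 4986, 4062, 2644 and 3004 in AngII, again with AngII 3 and 4 below every Ctrl mouse. For Bmp6 the log2 fold change was -0.23 ± 0.33, and it was 0.29 after each library was corrected for GC content.

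The antagonists showed no common course under AngII. Nog (chr11:89191464-89193158), which binds BMP ligands and keeps them off the receptors, was close to the lower limit of measurement, with 50.3, 11.7, 24.9 and 106 normalized counts in Ctrl and 43.4, 127, 42.1 and 79.4 in AngII. The ranges overlapped, and the log2 fold change was 0.60 ± 0.81, with values from 0.18 (without AngII 2) to 1.33 (without Ctrl 4) when single mice were left out. Bmper (chr9:23134325-23396509), which binds BMPs in the extracellular space and modulates their signal, had 2975, 1919, 1405 and 4193 in Ctrl and 2997, 4331, 1621 and 804 in AngII. Its log2 fold change of -0.10 ± 0.50 turned positive when Ctrl 4, AngII 3 or AngII 4 was left out, at 0.05 to 0.22, and was 0.01 after the GC correction.

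Among the inhibitor and the targets, Id3 came closest to the threshold. Id3 (chr4:135870808-135873066), an inhibitor of basic helix-loop-helix transcription factors, had 51167, 34790, 43313 and 45689 normalized counts in Ctrl and 43300, 32311, 20359 and 14506 in AngII. AngII 2, 3 and 4 lay below all Ctrl mice, and AngII 1 among them. The log2 fold change was -0.66 ± 0.29, with a 95% confidence interval of -1.29 to -0.04, an adjusted p of 0.176 in edgeR's quasi-likelihood test and p = 0.0571 in the exact permutation test. With AngII 1 left out, edgeR's quasi-likelihood test gave -0.97 with an adjusted p of 0.0480, in the same fit with 9.02% of all genes called, and the GC correction left -0.28.

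Smad6 (chr9:63860341-63929793) had 6767, 7497, 12826 and 10278 normalized counts in Ctrl and 10541, 8132, 4783 and 3544 in AngII. AngII 3 and 4 lay below all Ctrl mice. Its log2 fold change was -0.47 ± 0.36, between -0.77 (without AngII 1) and -0.26 (without AngII 4) with single mice left out, and 0.02 after the GC correction. Id1 (chr2:152566218-152579544), which acts as Id3 does, varied least, with 12587, 10458, 11657 and 12229 in Ctrl and 12244, 9376, 10140 and 7564 in AngII. Its log2 fold change was -0.25 ± 0.20, with 3 of 4 AngII mice below every Ctrl mouse, and 0.17 after the GC correction. Opposite-strand genes share exon sequence with several members (22.5% of Bmp4 with Gm15222, 13.7% of Id1 with Gm75058, 11.8% of Id3 with Gm57159 and 5.77% of Bmp6 with the abundant Txndc5), and the strand setting of the counting is not given in the sources used here, so reads from those stretches cannot be told apart.

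**Figure D2:**
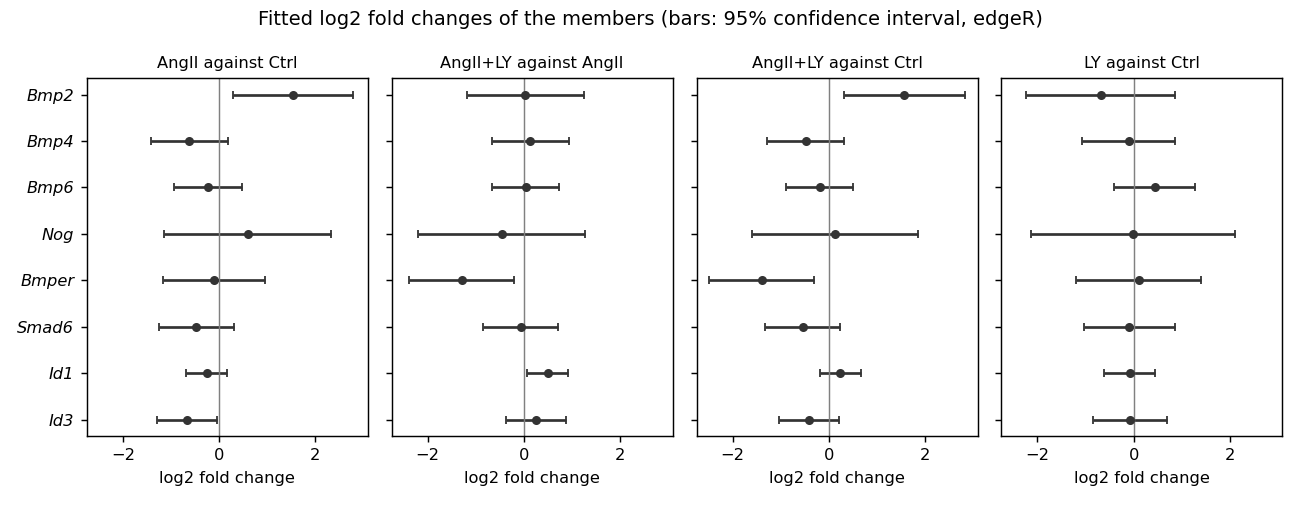
Points are the fitted log2 fold changes of the 8 tested members in 4 comparisons and bars their 95% confidence intervals from edgeR's quasi-likelihood fit. The interval lies above 0 for Bmp2 in both comparisons of an AngII-treated group with Ctrl. For Bmper it lies below 0 in both comparisons of AngII+LY. It also lies below 0 for Id3 in AngII against Ctrl and above 0 for Id1 in AngII+LY against AngII. No adjusted p was under 0.05.

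AngII+LY against AngII asks what HTR2B blockade changed during the infusion. edgeR's quasi-likelihood test called 0 of 8 members and 0.0% of all genes, with a smallest adjusted p of 0.0568. At an unadjusted p under 0.05, 2 of 8 members, Bmper and Id1, stood beside 22.5% of all genes. DESeq2 called 0 of 8 beside 10.9%, and the newer quasi-likelihood method 0 of 8 beside 0.919%. No member had groups that stayed apart, against 11.1% of all genes. The median log2 fold change was 0.04 over the members and -0.02 over all genes.

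Bmper had 1770, 546, 818 and 862 normalized counts in the AngII+LY mice, next to the 2997, 4331, 1621 and 804 of the AngII mice. All AngII+LY mice but the first lay near or below the lowest AngII mouse, and AngII 4 lay among them. The log2 fold change was -1.29 ± 0.51 with a 95% confidence interval of -2.38 to -0.20, an adjusted p of 0.156 in edgeR's quasi-likelihood test and p = 0.20 in the exact permutation test. DESeq2 gave an adjusted p of 0.0550, and 0.0224 with a log2 fold change of -1.54 when AngII 4 was left out, where DESeq2 called 5.05% of all genes. The interstitial and fibroblast markers, 12 of 12 detected and none at 0 in a library, were also lower, with shares of the counts between 0.512 and 0.928% in AngII+LY. Their shares were between 1.22 and 1.85% in AngII and between 0.973 and 1.98% in Ctrl. Cardiomyocyte markers (12 of 12 detected) went the other way, with 2.24 to 4.73% in AngII+LY, where AngII had 0.953 to 1.84%. Their part in the result was not tested.

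Id1 had 14037, 16904, 15129 and 9431 normalized counts in the AngII+LY mice, and 3 of the 4 lay above every AngII and every Ctrl mouse. The log2 fold change was 0.50 ± 0.20 with a 95% confidence interval of 0.07 to 0.92, an adjusted p of 0.163 in edgeR's quasi-likelihood test and p = 0.0857 in the exact permutation test. After the GC correction it was 0.15. Adipocyte markers had the closest relation to Id1 of the marker lists (Pearson r 0.61 over the 14 libraries). They took 0.0834 to 0.107% of the AngII+LY counts, 0.0407 to 0.0722% of the AngII counts and 0.0874 to 0.122% of the Ctrl counts. Of these markers 8 of 8 were detected, with Lep at 0 in at least 1 library. Their median log2 fold change in AngII+LY against AngII was 0.06. Their part was not tested.

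The ligands did not separate AngII+LY from AngII. Bmp2 had 2353, 9466, 6505 and 1986 in AngII+LY, a range within that of the AngII mice, and the log2 fold change was 0.03 ± 0.57. Bmp4 had 2877, 4883, 3172 and 1988, with a log2 fold change of 0.14 ± 0.37. Bmp6 had 2108, 6825, 3913 and 2286, with a log2 fold change of 0.04 ± 0.33 and AngII+LY 2 above every other mouse of the study. The 95% confidence intervals of these differences were -1.19 to 1.26 for Bmp2, -0.66 to 0.93 for Bmp4 and -0.66 to 0.74 for Bmp6, so changes of either sign within them were not detectable here. The direction of all 3 changed with the mouse left out.

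Of the rest, Id3 had 32330, 43556, 30571 and 25846 normalized counts in AngII+LY and a log2 fold change of 0.26 ± 0.29. Its AngII+LY mice lay between the extremes of the AngII group but for AngII+LY 2, which was just above AngII 1. Smad6 had 4575, 11009, 5914 and 4251 with a log2 fold change of -0.07 ± 0.36, and Nog 24.7, 9.50, 83.5 and 93.9 with one of -0.47 ± 0.81. For these the ranges of the groups overlapped.

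AngII+LY against Ctrl, which asks what remained under both treatments, gave 0 of 8 members and 0.0% of all genes in edgeR's quasi-likelihood test, with a smallest adjusted p of 0.0857. Both treated groups are set against the same 4 Ctrl mice, so these values are not independent of the AngII comparison. At an unadjusted p under 0.05, 2 of 8 members, Bmp2 and Bmper, stood beside 11% of all genes, and DESeq2 and the newer method called 0 of 8 beside 1.79% and 0.0%. Bmp2 had a log2 fold change of 1.57 ± 0.59, a 2.98-fold higher level, with an adjusted p of 0.347 in edgeR's quasi-likelihood test. AngII+LY 4 lay within the Ctrl range of Bmp2 and the other 3 above it. No member had groups that stayed apart, beside 8.16% of all genes. Bmper was lower by a log2 fold change of -1.39 ± 0.51, with an adjusted p of 0.342 in edgeR's quasi-likelihood test and p = 0.0571 in the exact permutation test, and 3 of 4 AngII+LY mice lay below all Ctrl mice. The other members ranged from -0.54 ± 0.36 for Smad6 to 0.24 ± 0.20 for Id1.

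LY against Ctrl asks what the compound did on its own, with 2 mice in the LY group. edgeR's quasi-likelihood test called 0 of 8 members and 0.0% of all genes, and an unadjusted p under 0.05 was reached by 0 of 8 members and 1.39% of all genes. DESeq2 called 0 of 8 beside 0.11%, and the newer method 0 of 8 beside 0.0%. Bmp6, at 6281 and 5382 in the LY mice, was the only member whose groups stayed apart, above all 4 Ctrl mice, beside 12% of all genes (5.64% higher). In the fit this was a log2 fold change of 0.44 ± 0.39. The exact two-sided permutation test gave p = 0.133, the smallest p it can return with 2 against 4 mice. Bmp2 had 899 and 1225 in the LY mice, with a log2 fold change of -0.68 ± 0.72 and a 95% confidence interval of -2.23 to 0.87. The remaining 6 members lay between these values.

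The difference between the LY effect with and without AngII was also fitted, and edgeR's quasi-likelihood test called 0 of 8 members and 0.0% of all genes (0 of 8 and 13.3% at an unadjusted p under 0.05). DESeq2 called 0 of 8 beside 1.06%, and the newer method 0 of 8 beside 0.0%. The fitted differences ran from -1.40 ± 0.78 for Bmper to 0.72 ± 0.92 for Bmp2, with 0.58 ± 0.32 for Id1. An LY effect on a member that depends on AngII was thus not detectable with these mice.

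Across the 14 libraries the members did not vary as 1 unit. Bmp4 varied with Smad6 (Pearson r 0.94 of log2 levels) and with Id3 (0.93), Smad6 with Bmp6 (0.86) and Id3 (0.82), and Bmp4 with Bmp6 (0.76). Taken within groups, as deviations from the group means, the first 2 coefficients were 0.94 and 0.91, so they do not rest on the group differences. Bmp2 went against Bmper (-0.65) and Id3 (-0.63), and its r with Bmp4 was -0.54. Id1 had an r of 0.61 with Id3 and 0.58 with Bmp4, and of 0.73 with each within groups. Nog had no coefficient beyond 0.46 in size with any member. These coefficients describe 14 libraries that share treatment groups, depth and tissue composition, and no test was made of them.

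**Figure D3:**
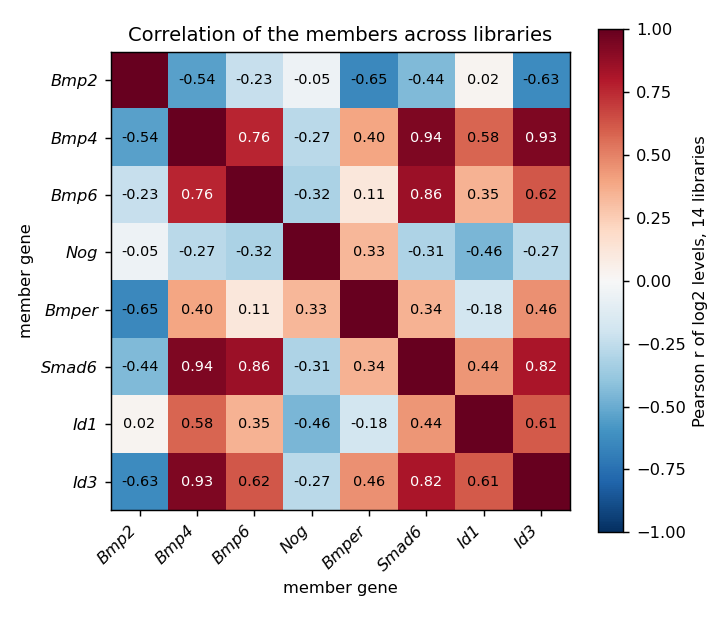
Cells give the Pearson r of the log2 levels of 2 members over the 14 libraries, from -1 (blue) to 1 (red). Among Bmp4, Bmp6, Smad6 and Id3 the coefficients run from 0.62 to 0.94, while the column of Bmp2 is blue or pale.

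The levels of the same members moved with properties of the libraries. The summed share of the 13 endothelial markers had an r of 0.93 with Smad6, 0.86 with Bmp4 and 0.80 with Bmp6 over the 14 libraries. Marker by marker, the median log2 fold change of the 13 in AngII against Ctrl was 0.17. In Ctrl the summed share, taken of all counts with the mitochondrial ones included, ran from 0.267 to 0.498%. The LY mice had 0.348 and 0.393%, the AngII mice between 0.221 and 0.420%, and the AngII+LY mice between 0.193 and 0.475%, with AngII 3 and AngII 4 at 0.230 and 0.221%. The mitochondrial share had an r of -0.85 with Id3, -0.83 with Bmp4 and 0.61 with Bmp2, and the interstitial share one of 0.82 with Bmper. The part of these properties in the differences between groups was not tested.

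**Figure D4:**
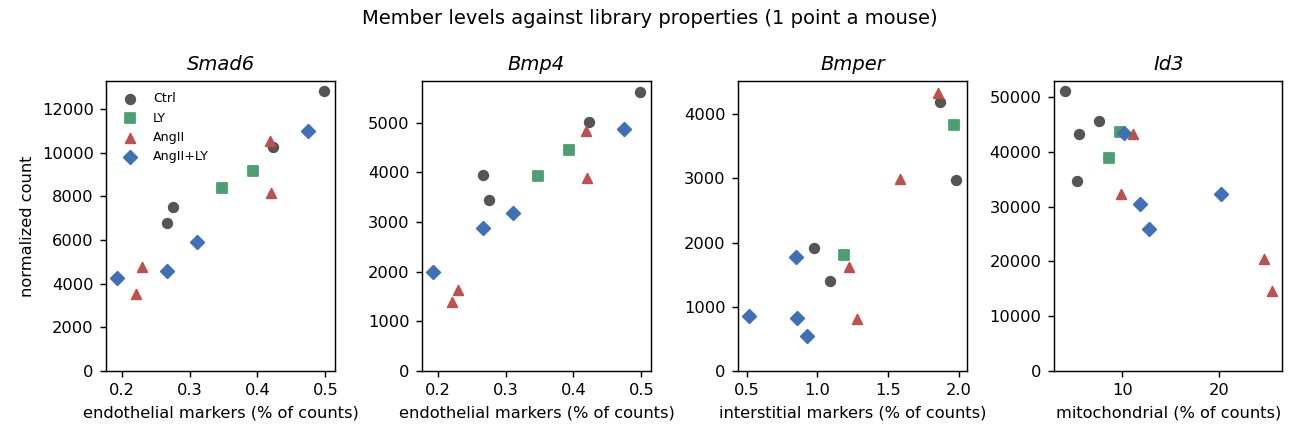
Each point is a mouse, with the normalized count of Smad6, Bmp4, Bmper or Id3 against the share of its counts in endothelial markers, interstitial markers or mitochondrial genes. Smad6 and Bmp4 are higher in the mice with a higher endothelial share, and the Id3 values of AngII 3 and AngII 4 lie at the lower right, at mitochondrial shares of 24.7 and 25.5%.

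The genes whose levels followed each member most closely over the 14 libraries were, by Pearson r, Tpst2 (0.99), Grina (0.98) and Ass1 (0.97) for Bmp4, and Mapkapk3 (0.98), Notch1 (0.97) and Tmcc2 (0.97) for Smad6. For Id3 they were Cracr2b (0.98), Rbck1 (0.96) and Gnai2 (0.96). The closest for Bmp2 were Atp13a3 (0.94), Sox17 (0.92) and Sdcbp2 (0.91), and for Bmper Panx3 (0.94), Cyp4v3 (0.93) and Clec11a (0.92). Id1 was followed by S100a16 (0.92), Vamp8 (0.91) and Sertad1 (0.90), Bmp6 by Spg21 (0.90), Plcg1 (0.89) and Rab11fip1 (0.89), and Nog by Lrch2 (0.86), Zmym5 (0.80) and Pex3 (0.80). Notch1 and Sox17 are known from endothelial cells, whose marker share had an r of 0.93 with Smad6 and -0.24 with Bmp2. The coefficients of the closest genes are the largest of a search over all well-measured genes with few libraries.

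Of the 57 other pathway genes, edgeR's quasi-likelihood test called 0 of the 52 tested in AngII against Ctrl. An unadjusted p under 0.05 was reached by 11 of 52, with 5 higher and 6 lower, or 4 of 11 receptors, 1 of 7 SMADs and ligases, 4 of 15 antagonists, 2 of 9 targets and 0 of 10 ligands, beside 25.2% of all genes (13.4% higher, 11.7% lower). DESeq2 called 8 of 52, with 3 higher and 5 lower, beside 13.9% (9.16% higher, 4.75% lower), and the newer quasi-likelihood method 2, beside 2.9%. Groups stayed apart for 6 of 52 (2 higher, 4 lower), beside 15% of all genes (7.46% higher, 7.56% lower). The median log2 fold change was -0.17, and -0.06 over all genes. Of the genes that did not enter the tests, Cer1 had 0 counts in every library.

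Bmpr2, the type II receptor of the pathway, had 2939, 2133, 2655 and 4296 normalized counts in Ctrl and 4521, 5740, 8129 and 9043 in AngII. All AngII mice lay above all Ctrl mice. Its fitted log2 fold change was 1.19 ± 0.26 with an adjusted p of 0.0574 in edgeR's quasi-likelihood test, 0.0439 by its newer method and 0.000891 by DESeq2, and it was 0.40 after the GC correction. Atoh8, a target of BMP receptor signalling in endothelial cells, went the other way, with 2717, 2287, 1316 and 861 in Ctrl and 842, 674, 543 and 308 in AngII. Its groups stayed apart, with a log2 fold change of -1.60 ± 0.39 and an adjusted p of 0.0584 in edgeR's quasi-likelihood test, 0.0473 by its newer method and 0.00223 by DESeq2, and the GC correction left -1.04.

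The remaining receptors and co-receptors with an unadjusted p under 0.05 in AngII against Ctrl had opposite signs. Acvr2b, a type II receptor shared with activins, had a log2 fold change of -1.10 ± 0.36 and the co-receptor Rgma one of -1.14 ± 0.39, with every AngII mouse of Rgma (126 to 242) below every Ctrl mouse (243 to 624). Acvr2a, another type II receptor, was higher by 0.84 ± 0.31, and 30.5% of its exon length is shared with the opposite-strand gene Orc4. DESeq2 called all 3, with adjusted p of 0.0250, 0.0355 and 0.0418.

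Among the antagonists, follistatin (Fst) was higher in AngII, at 1900 to 3395 against 852 to 2073 normalized counts, with a log2 fold change of 1.03 ± 0.40 and an adjusted p of 0.137 in edgeR's quasi-likelihood test. Fstl3, a relative of follistatin, was lower, at 197 to 458 against 479 to 1445, with a log2 fold change of -1.19 ± 0.42, and 47.1% of its exon length lies opposite Prss57. The value of Sost, a secreted antagonist best known from bone, rested on 1 mouse: Ctrl 1 had 12039 normalized counts and the other Ctrl mice 52.4 to 766, and the log2 fold change of -4.33 ± 1.55 was -0.97 without Ctrl 1. Ctrl 1 also had the highest shares of smooth muscle markers (0.962%) and melanocyte markers (0.0447%) of the 14 libraries. The other Ctrl mice had 0.0251 to 0.139% in smooth muscle markers. The part of these shares in the value of Sost was not tested. Sostdc1, chosen after its values were seen, had 0 counts in all 4 AngII mice and 0.00 to 23.3 normalized counts in Ctrl, so that its fitted fold depends on the fitting and is not given.

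Of the SMADs and their ligases, Smurf2, a ubiquitin ligase for SMADs and receptors, had 1944 to 2902 normalized counts in Ctrl and 2574 to 5675 in AngII, with a log2 fold change of 0.63 ± 0.28 that was 0.19 after the GC correction. Smad7, an inhibitory SMAD like Smad6, had all AngII mice (1582 to 2527) below all Ctrl mice (2669 to 2904), with a log2 fold change of -0.32 ± 0.20 that was 0.21 after the GC correction. Smurf1, the other ligase, had a log2 fold change of -0.37 ± 0.18, and 0.15 after the GC correction, with AngII 1 just above the lowest Ctrl mouse. Runx2, a transcription factor of bone formation, had 23.3 to 43.4 normalized counts in Ctrl and 67.2 to 139 in AngII, and the groups stayed apart, with a log2 fold change of 1.41 ± 0.61 and an adjusted p of 0.168 in edgeR's quasi-likelihood test. The homeobox gene Msx1 had a log2 fold change of -0.51 ± 0.31, and -0.0257 after the GC correction. Of the other ligands, those with the smallest p were Gdf7 at -1.67 ± 0.83, Bmp3 at -1.49 ± 1.12 and Gdf2, also called BMP9, at -0.69 ± 0.53, none under an unadjusted p of 0.05. The value of Bmp3 rested on Ctrl 1, which had 1955 normalized counts against 136 to 360 in the other Ctrl mice, and was -0.11 without it. That of Gdf2 was -0.25 without Ctrl 3.

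In AngII+LY against AngII the same lists gave 0 of 52 calls in edgeR's quasi-likelihood test. An unadjusted p under 0.05 was reached by 17 of 52, with 5 higher and 12 lower, beside 22.5% of all genes (10.1% higher, 12.4% lower). By list these were 8 of 11 receptors, 3 of them higher and 5 lower. The others were 2 of 7 SMADs and ligases, 4 of 15 antagonists, 2 of 9 targets and 1 of 10 ligands. DESeq2 called 8 of 52, with 2 higher and 6 lower, beside 10.9% (5.34% higher, 5.54% lower), and the newer quasi-likelihood method 1, beside 0.919%. Groups stayed apart for 10 of 52 (1 higher, 9 lower), beside 11.1% (5.45% higher, 5.66% lower). The median log2 fold change was -0.06, and -0.02 over all genes.

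The co-receptor Rgmb had 5197, 5646, 4653 and 4960 normalized counts in AngII and 2086, 3329, 3133 and 2135 in AngII+LY, with every AngII+LY mouse below every AngII mouse. The Ctrl mice, at 3069 to 5020, overlapped both groups. The log2 fold change was -0.94 ± 0.20 with an adjusted p of 0.0588 in edgeR's quasi-likelihood test, 0.0497 by its newer method and 0.000963 by DESeq2, and -0.90 after the GC correction. Bmpr2 was lower by -0.71 ± 0.26, at 3544 to 5503 normalized counts in AngII+LY, and the GC correction left -0.09. The type I receptor Bmpr1a had a log2 fold change of -0.70 ± 0.25, with groups that stayed apart, and -0.39 after the GC correction. Acvr2b and Rgma went the other way. Acvr2b had 366 to 626 normalized counts in AngII+LY and 123 to 484 in AngII. Rgma had 215 to 559 and 126 to 242, so the groups of both genes overlapped.

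Of the antagonists and modulators, 3 lay lower in AngII+LY with groups that stayed apart. Chordin-like 1 (Chrdl1) had 569, 2178, 869 and 1502 in AngII and 549, 224, 464 and 394 in AngII+LY, a log2 fold change of -1.65 ± 0.43 with an adjusted p of 0.0668 in edgeR's quasi-likelihood test and 0.00416 in DESeq2. Twsg1, which ties BMPs to chordin, had 10174 to 14768 in AngII+LY against 18438 to 23194 in AngII, a log2 fold change of -0.65 ± 0.20. Fstl1, a follistatin relative of mesenchymal cells, had 22135 to 33833 against 36961 to 49898, a log2 fold change of -0.65 ± 0.22. DESeq2 gave adjusted p of 0.0154 and 0.0347 for them. The interstitial marker share named for Bmper was lower in the same mice.

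Atoh8 lay higher in all AngII+LY mice (927, 1953, 1050 and 1269) than in all AngII mice, with a log2 fold change of 1.13 ± 0.39 and an adjusted p of 0.117 in edgeR's quasi-likelihood test and 0.0284 in DESeq2. The GC correction left 0.65. Runx2 lay lower, at 15.4 to 56.5 normalized counts, with a log2 fold change of -1.47 ± 0.61 and groups that stayed apart. Id4, a relative of Id1 and Id3, was also apart and lower, at 572 to 1362 against 1571 to 2571, with a log2 fold change of -1.10 ± 0.57. Id2, another relative, had 5560 to 8524 against 7088 to 10942, so that the log2 fold changes of Id1, Id2, Id3 and Id4 in this comparison were 0.50, -0.19, 0.26 and -1.10.

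Among the ligands, Bmp5 had 62.5 to 300 normalized counts in AngII and 13.0 to 59.2 in AngII+LY, with groups that stayed apart, a log2 fold change of -2.13 ± 0.75 and an adjusted p of 0.121 in edgeR's quasi-likelihood test. Bmp15, an ovarian ligand, was lower in AngII+LY and apart too, at 25.9 to 301 normalized counts against 316 to 837 in AngII. Its log2 fold change was -1.35 ± 0.65. The groups of Gdf2, at -0.64 ± 0.53, overlapped. Smurf2 was lower by -0.84 ± 0.28, the shared SMAD Smad4 by -0.39 ± 0.18 and the receptor-regulated Smad5 by -0.36 ± 0.17, the last with an unadjusted p of 0.0555.

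**Figure D5:**
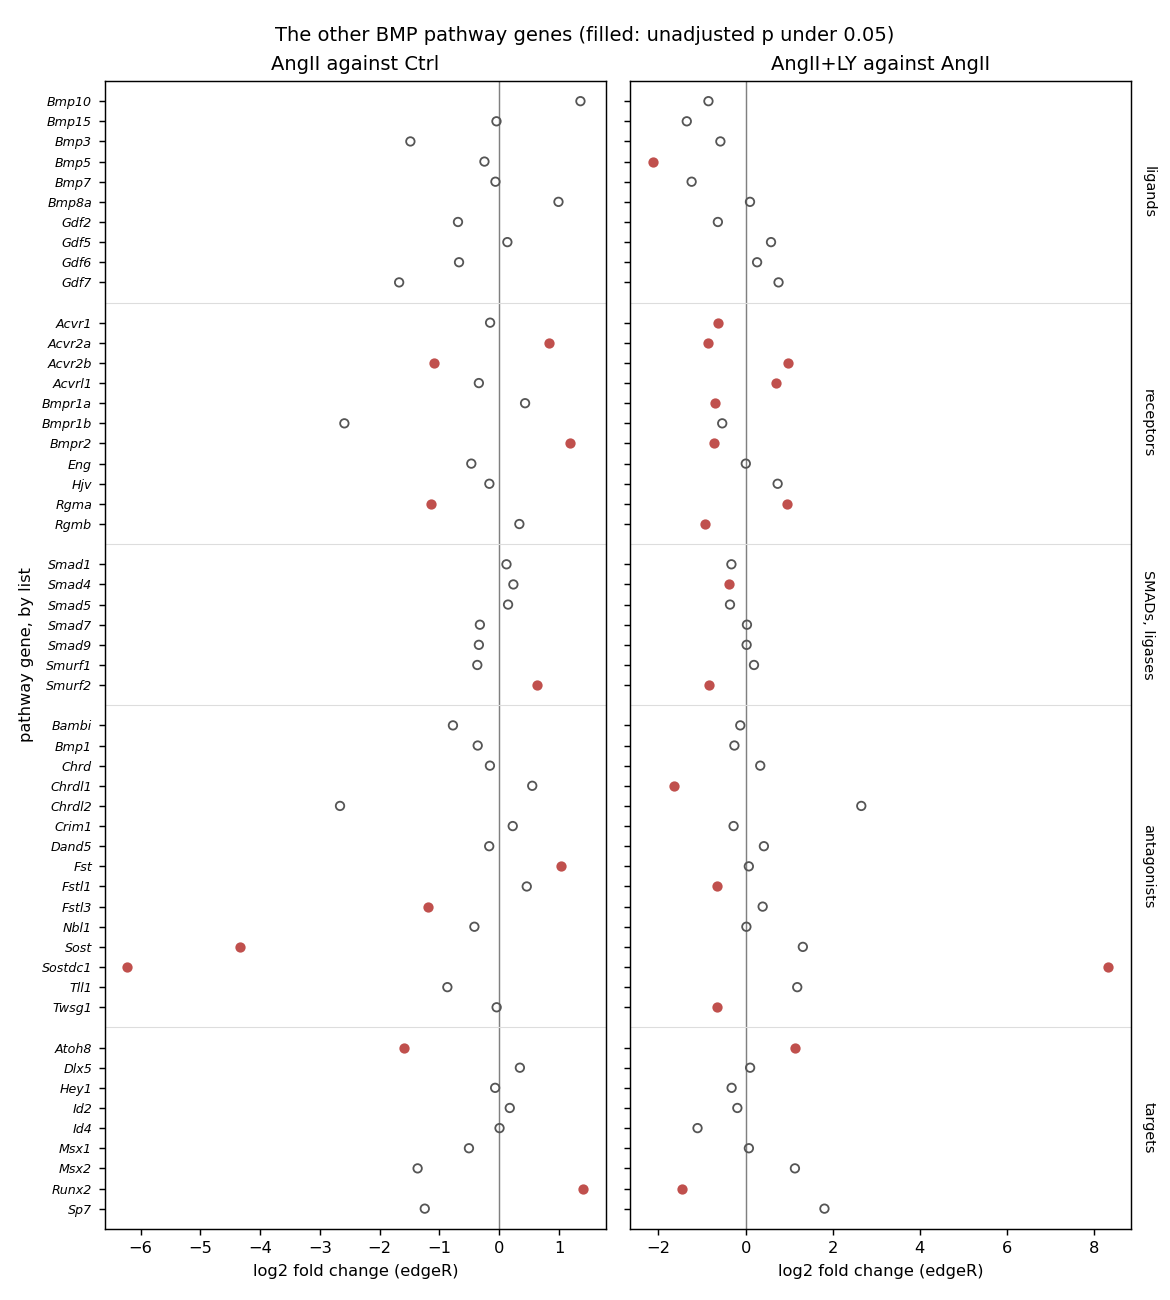
Points are the log2 fold changes of the 52 tested pathway genes by list, in AngII against Ctrl (left) and AngII+LY against AngII (right), filled at an unadjusted p under 0.05 in edgeR's quasi-likelihood test. Of the filled points, 6 of 11 lie below 0 on the left and 12 of 17 on the right, and the points of Sostdc1 at the edges come from 0 counts in the AngII mice.

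In the other comparisons the pathway genes gave 0 calls in edgeR's quasi-likelihood test. In AngII+LY against Ctrl an unadjusted p under 0.05 was reached by 10 of 52, with 1 higher and 9 lower, beside 11% of all genes. DESeq2 called 2, Bmp5 and Twsg1, beside 1.79%. The median log2 fold change in this comparison was -0.22 over the 52 genes and -0.02 over all genes. In LY against Ctrl an unadjusted p under 0.05 was reached by 1 of 52, Acvr2a, beside 1.39%. For the difference of the LY effect it was reached by 10 of 52 beside 13.3%, and DESeq2 called 0 of 52 beside 1.06%.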

How the data were processed

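Bulk RNA-seq of aortic valve leaflets was measured in 14 mice. The authors checked reads with FastQC (v0.12.1), trimmed them, aligned them to GRCm39 with HISAT2, counted genes with featureCounts and tested with DESeq2. The annotation release and the strand setting are not given in the sources used here. The deposited table, called normalized by its name, holds raw whole-number counts. Among counts from 1 to 12, even values (38641) exceeded odd ones (25162). No column of other samples was present, and groups came from the sample titles.

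The 19145 genes averaging 10 counts or more were fitted in R 4.3.3 with edgeR 4.0.16 (TMM, quasi-likelihood defaults), all 4 groups in 1 model, with Benjamini-Hochberg adjustment. DESeq2 1.42.0 and limma 3.58.1 were alternatives. Normalized counts are counts divided by the relative TMM-adjusted library size. SE is the log2 fold change divided by the root of F. Permutation tests used log2(normalized count + 1). The scripts were tested on simulated data. GC and exon lengths came from GENCODE on GRCm39. Mice are separate animals, and p-values set group differences against the spread between mice. In edgeR's fit this spread is estimated from all 4 groups, with information shared across genes.

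Members and lists were chosen with earlier results of these data known. Named are all members, the pathway genes with the 3 smallest p per list in AngII against Ctrl and AngII+LY against AngII, and the 3 genes most alike to each member. Acvr2a, Id2 and Sostdc1 were added after their values were seen.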

Additional observations from a re-analysis of the deposited data

How the results depend on the processing

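Of 1210 values of 55 single-gene differences under alternative settings, 1126 kept their direction and side of the threshold, 43 passed it and 41 changed sign. Shares in parentheses are those of all genes called in the same fit. In AngII against Ctrl, the members called went from 0 to 1 (Bmp2) with DESeq2 (13.9%) and from 0 to 2 (Bmp2, Id3) across leave-one-out fits, the 2 being without AngII 1 (9.02%). The pathway genes went from 0 to 8 with DESeq2, 1 with limma at a pseudocount of 10 (1.25%) or with no filter on low counts (0.377%), 2 at a mean count of at least 100 (7.16%) or by the newer quasi-likelihood method (2.9%), 3 with DESeq2 without AngII 4 (4.83%), and 0 to 2 with single mice left out, the 2 being without Ctrl 4 (4.17%), AngII 1 (9.02%) or AngII 2 (1.88%). In AngII+LY against AngII, DESeq2 without AngII 4 called 1 member, Bmper (5.05%). The pathway genes went to 8 with DESeq2 (10.9%), 1 with limma at a pseudocount of 0.5 (1.67%) or 10 (2.1%) and by the newer method (0.919%), 2 at a mean count of at least 100 (3.77%), 5 with DESeq2 without AngII 4 (5.05%), and 0 to 2 with single mice left out, the 2 being without AngII 1 (4.4%). DESeq2 called 2 pathway genes in AngII+LY against Ctrl (1.79%) and, without AngII 4, 1 for the difference of the LY effect (0.893%). The newer method and the fits with DESeq2 without AngII 4 were chosen after seeing the data.

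Some differences changed sign, and the cause was not tested. In AngII against Ctrl, the GC correction gave 0.29 for Bmp6, 0.0139 for Bmper, 0.0170 for Smad6, 0.17 for Id1, 0.15 for Smurf1 and 0.21 for Smad7. Bmper was -0.53 to 0.22 with single mice left out and 0.19 with DESeq2 without AngII 4. In AngII+LY against AngII, the GC correction gave -0.39 for Bmp2, -0.0850 for Bmp4, -0.42 for Bmp6 and -0.0442 for Id3. With single mice left out, Bmp2 was -0.43 to 0.67, Bmp4 -0.11 to 0.49, Bmp6 -0.38 to 0.24 and Smad6 -0.43 to 0.23. DESeq2 without AngII 4 gave -0.0619 for Bmp4 and -0.0147 for Bmp6, and limma gave -0.0805 (pseudocount 0.5) and -0.0799 (pseudocount 10) for Bmp6.

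Replicate numbers were shared across groups, but same-numbered mice did not deviate together (correlations from -0.13 to 0.09), so they share only a number. With the replicate block, 0 members, 0 pathway genes and 0 genes in all were called in every comparison, and Bmp6 in AngII+LY against AngII was -0.0287. The replicate block with the GC correction gave 0.29 for Bmp6, 0.17 for Id1, 0.16 for Smurf1 and 0.21 for Smad7 in AngII against Ctrl, and -0.12 for Bmp2, -0.0510 for Bmp4, -0.48 for Bmp6 and -0.0266 for Id3 in AngII+LY against AngII. The older quasi-likelihood method, listed as an alternative, is the default of the installed edgeR and so was the method of the report. With 4 mice a group, or 2 in LY, and a library of 20990655 counts among them, differences of the sizes above were mostly within the spread between mice.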
